A study of Mus musculus with 5 samples.

Results

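The smooth muscle contractile genes described here are Acta2, Actg2, Tagln, Cnn1, Cnn2, Tpm1, Tpm2, Cald1, Myh11 and Smtn. They were chosen by name as 10 of the 54636 genes in the table of counts, and all 10 were found in it. RNA from mouse cancer-associated fibroblasts (CAFs) in culture was sequenced in 5 libraries, 1 for each condition. Untreated PDX CAFs, labelled WT, came from patient-derived xenografts (PDX) of a rectal tumor grown subcutaneously in Nude mice, which lack a working Foxn1 gene. Control siRNA PDX CAFs received a scrambled siRNA and Fn1 siRNA PDX CAFs an siRNA against Fn1, the fibronectin gene, and per the study's methods transfected cells were used 48 h later. The Cre- control CAFs and the myosin IIA KO CAFs came from tumors of mice in which Myh9, which encodes the heavy chain of myosin IIA, is flanked by loxP sites (myosin IIA fl/fl). The breeding in these mice combined SMA-CreERT2, a tamoxifen-activated Cre recombinase, with the R26mT/mG reporter, and the labels give the genotypes as MyosinIIA KO Cre- and MyosinIIA KO Cre+ and 2 µM tamoxifen for both cultures. Cre is driven by the promoter of smooth muscle actin, which is the product of Acta2, so recombination depended on a promoter of the gene set under study. All CAFs were immortalized with SV40 large T-antigen, and each library is 1 culture. The sources used here do not say whether recombined cells were sorted. Per the study's methods, the female Nude mice were engrafted at 5 to 6 weeks of age. The floxed mice, males and females, were irradiated at 6 to 8 weeks, received bone marrow of donor mice and were left for 8 weeks. They then carried tumors grown from mouse tumoroids for 9 weeks, and mice with and without Cre were injected with tamoxifen in that time. The labels name the tissue of every library as subcutaneous rectal tumor, while the methods place the tumors of the floxed mice in the interscapular fat pad.

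Smooth muscle cells contract when myosin pulls on actin filaments, and the genes of this set encode parts of that machinery: actins, tropomyosins that line the filament, the actin-binding regulators caldesmon, calponin, transgelin and smoothelin, and a myosin heavy chain. Fibroblasts that take up part of this machinery are called myofibroblasts, and αSMA, the protein of Acta2, is their usual marker. Many of these genes are switched on by serum response factor (SRF), which binds a short DNA element called the CArG box, together with myocardin or its relatives the MRTF proteins, and the growth factor TGFβ is a known inducer.

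The CArG box was searched in the 300 bases around the start of each gene, from 250 before to 50 after it, as RefSeq gives them for GRCm38.p6. Of the 10 genes, 7 had an entry, and Actg2, Tagln and Myh11 did not. The box was searched as CC, 6 bases of A or T, and GG, which reads the same way on both strands. Of the 7, it was in the promoter of Cnn2 alone, against 1.63% of all 32851 promoters. A form with a single C or G among the 6 inner bases, added after seeing the data, was in the promoter of Acta2 alone, at 2 places, against 8.5% of all promoters. These 2 promoters are shown with the matches in capitals, Cnn2 for the CArG box and Acta2 for the looser form only. The Acta2 window is chr19:34255324-34255623 on the minus strand, with matches that begin 84 and 34 bases before the start, and the Cnn2 window is chr10:79988350-79988649 on the plus strand, with a match that begins 56 bases before it.
Acta2 promoter: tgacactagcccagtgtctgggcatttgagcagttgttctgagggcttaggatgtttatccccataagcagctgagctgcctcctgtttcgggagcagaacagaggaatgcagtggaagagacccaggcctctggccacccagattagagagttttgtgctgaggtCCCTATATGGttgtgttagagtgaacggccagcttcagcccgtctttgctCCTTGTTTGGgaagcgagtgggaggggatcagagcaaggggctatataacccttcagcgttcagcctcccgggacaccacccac
Cnn2 promoter: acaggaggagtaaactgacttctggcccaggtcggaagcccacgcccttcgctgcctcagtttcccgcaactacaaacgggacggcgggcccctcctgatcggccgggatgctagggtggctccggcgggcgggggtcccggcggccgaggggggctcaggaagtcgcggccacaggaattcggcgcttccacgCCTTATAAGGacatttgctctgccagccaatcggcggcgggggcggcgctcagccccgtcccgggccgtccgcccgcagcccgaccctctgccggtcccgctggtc
The MCAT element CATTCC, which TEAD factors bind, was found on either strand in 4 of the 7 genes (Acta2, Tpm1, Cald1 and Smtn), against 14.7% of all promoters, and did not overlap the CArG matches. The sequence TATAAA was in 1 of the 7, in the second of the 2 windows of Cald1, against 13.6% of all promoters. The counts out of 7 are of genes while the shares are of promoters, and Cald1 alone had 2 windows. A match is a description of the sequence and not evidence of binding.

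Read totals were 22961620 to 26596351 counts per library, so 3 counts, the most that a count of 0 allows, came to 0.108 to 0.135 CPM (counts scaled by the size of the library). Each condition had 1 library, so there was no replicate check and no test between conditions, and every interval covers counting error only. The targeted genes followed their labels. Myh9 was at 2419 CPM in the Cre- control and 425 CPM in myosin IIA KO CAFs, and Fn1 at 4778 CPM with control siRNA and 1282 CPM after Fn1 siRNA. Fibroblast markers summed to between 21136 and 47856 CPM, with 7 of 9 at 1 CPM or more in the PDX libraries and all 9 in the others. Epithelial markers summed to at most 0.868 CPM and immune markers to at most 2.88 CPM. Of 10 markers of pericytes and vascular smooth muscle, the other cells that normally make these proteins, 2 to 4 reached 1 CPM in a library, and Kcnj8 and Higd1b had no count in any. Notch3 was at 24.8 CPM in untreated PDX CAFs and 110 CPM in Cre- control CAFs, and Mcam at 10.97 and 43.3 CPM. Cspg4 was at 0.932 and 17.8 CPM in the same order. In such bulk samples, fewer cells of a type and less RNA per cell cannot be told apart.

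All 10 genes were lowest in untreated PDX CAFs, and 8 were highest in Cre- control CAFs. Together they took 0.411% of all counts in untreated PDX CAFs, 0.892% with control siRNA, 0.986% with Fn1 siRNA, 1.29% in Cre- control CAFs and 0.728% in myosin IIA KO CAFs. The highest level exceeded the lowest by between 1.69-fold for Cald1 and 151-fold for Myh11. The 5 libraries fell in the same order for Acta2, Cnn1, Cnn2, Tpm2 and Smtn, from untreated PDX CAFs through myosin IIA KO, control siRNA and Fn1 siRNA to Cre- control CAFs. Of the 40 pairs of neighbours in the orders of the 10 genes, 8 had counting intervals that overlapped.

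Acta2 (ENSMUSG00000035783, chr19:34241090-34255336, mm10) encodes αSMA. It was at 1501 CPM in untreated PDX CAFs, 4811 CPM after control siRNA, 5646 CPM after Fn1 siRNA, 7727 CPM in the Cre- control and 3383 CPM in myosin IIA KO CAFs. No neighbours in this order had overlapping intervals. By count it ranked 4 among all genes in Cre- control CAFs and 40 in untreated PDX CAFs, and it made up 37.6% to 59.8% of the counts of the whole set.

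Actg2 (ENSMUSG00000059430, chr6:83512905-83536265) encodes the γ smooth muscle actin of gut and bladder wall. It was at 5.12 CPM in untreated PDX CAFs, 36.4 CPM after control siRNA, 39.6 CPM after Fn1 siRNA, 219 CPM in the Cre- control and 50.1 CPM in myosin IIA KO CAFs. Cre- control CAFs stood alone, and the values with control and Fn1 siRNA were the only neighbours whose intervals overlapped.

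Myh11 (ENSMUSG00000018830, chr16:14194535-14291372) encodes the smooth muscle myosin heavy chain, a marker of mature smooth muscle. It had 4 counts (0.169 CPM) in untreated PDX CAFs, 54 counts (2.08 CPM) with control siRNA and 41 counts (1.85 CPM) with Fn1 siRNA. Cre- control CAFs held 669 counts (25.6 CPM) and myosin IIA KO CAFs 204 counts (7.38 CPM). It was thus near the limit of detection in untreated PDX CAFs, and the 2 siRNA libraries did not differ beyond counting error.

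Tropomyosins stabilize the actin filament and set which proteins bind to it. Tpm1 (ENSMUSG00000032366, chr9:67022590-67049406) was at 619 CPM in untreated PDX CAFs, 1239 CPM after control siRNA, 1399 CPM after Fn1 siRNA, 1265 CPM in the Cre- control and 789 CPM in myosin IIA KO CAFs, and it was the only member highest with Fn1 siRNA. Tpm2 (ENSMUSG00000028464, chr4:43514711-43523765) was at 416, 680, 757, 934 and 563 CPM in the same order. Both genes also have non-muscle transcripts, which a count per gene cannot separate from the muscle ones.

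Cald1 (ENSMUSG00000029761, chr6:34598500-34775473) encodes caldesmon, which holds back myosin on the filament and exists in a smooth muscle form and a form of other cells, counted together here. It was at 717 CPM in untreated PDX CAFs, 1134 CPM after control siRNA, 1197 CPM after Fn1 siRNA, 1157 CPM in the Cre- control and 1213 CPM in myosin IIA KO CAFs. Untreated PDX CAFs stood below the other 4 libraries, which spanned 1134 to 1213 CPM.

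Calponins bind actin and restrain myosin, with Cnn1 the smooth muscle form and Cnn2 found in many cells. Cnn1 (ENSMUSG00000001349, chr9:22099216-22109630) was at 95.7 CPM in untreated PDX CAFs, 233 CPM after control siRNA, 274 CPM after Fn1 siRNA, 389 CPM in the Cre- control and 114 CPM in myosin IIA KO CAFs. Cnn2 (ENSMUSG00000004665, chr10:79988584-79996062) was at 570.0, 892, 951, 1037 and 722 CPM in the same order. The order of libraries was the same for both, over a 4.06-fold range for Cnn1 and a 1.82-fold range for Cnn2.

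Smtn (ENSMUSG00000020439, chr11:3517523-3540612) encodes smoothelin, a protein of contractile smooth muscle filaments. It was at 72.1 CPM in untreated PDX CAFs, 96.1 CPM after control siRNA, 104 CPM after Fn1 siRNA, 145 CPM in the Cre- control and 88.2 CPM in myosin IIA KO CAFs. Its exons overlap those of Gm11946 on the other strand over 16.3% of their length in GENCODE M21.

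Tagln (ENSMUSG00000032085, chr9:45929619-45936058) encodes transgelin (SM22α), an abundant actin-binding protein of smooth muscle. It had 41 counts (1.74 CPM) in untreated PDX CAFs, 141 (5.42 CPM) after control siRNA, 159 (7.16 CPM) after Fn1 siRNA, 333 (12.7 CPM) in the Cre- control and 212 (7.67 CPM) in myosin IIA KO CAFs. These levels must be read with care, since exons of genes on the opposite strand overlap 67.9% of the Tagln exon bases, 62.4% by Gm48529 and 5.43% by Pcsk7. Of the 50-base stretches of its transcripts, 58.3% also occur in transcripts of other genes. Not given in the sources used here was whether such reads were counted for Tagln, for its neighbours or for neither. Gm48529 was at 1.06 CPM in untreated PDX CAFs, 3.35 CPM after control siRNA, 3.02 CPM after Fn1 siRNA, 5.20 CPM in the Cre- control and 6.26 CPM in myosin IIA KO CAFs. Pcsk7 lay between 54.9 and 66.2 CPM. Apart from Tagln and Smtn, no gene of the set shares exon bases with another gene, and at most 0.340% of the 50-base stretches of these 8 recur elsewhere, against 9.46% for Smtn.

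**Figure D1:**
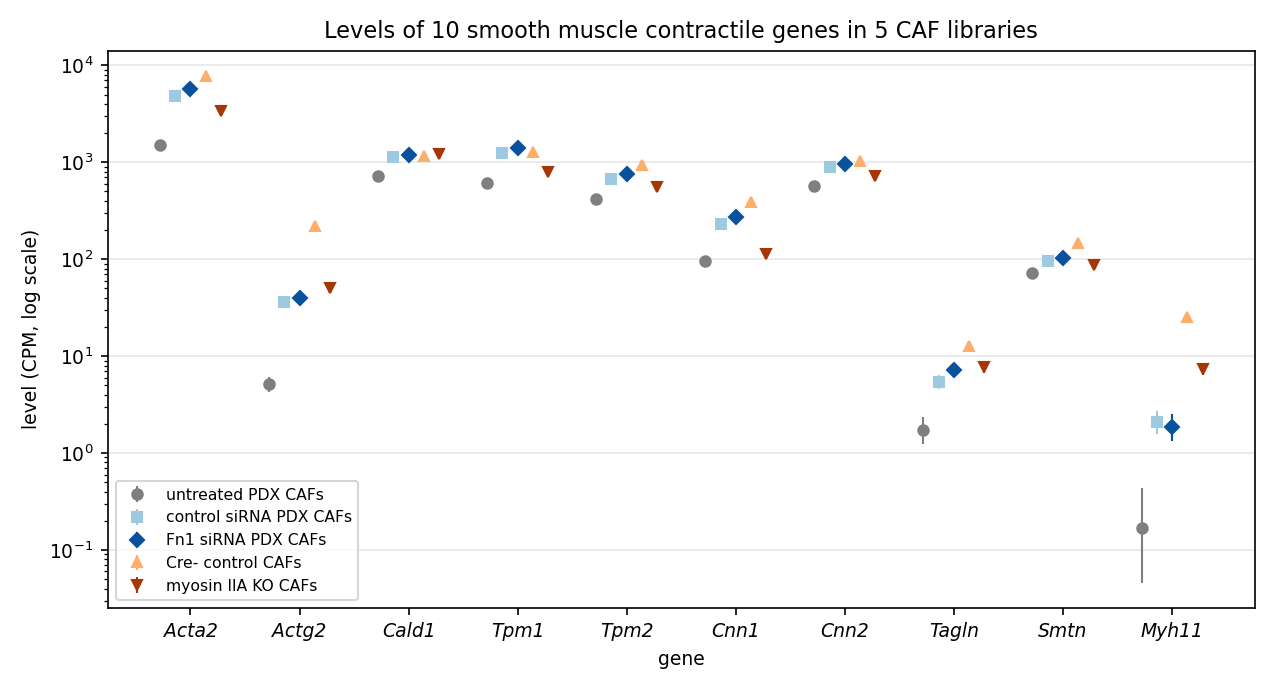
Level of each of the 10 genes (CPM, log axis) in the 5 libraries, 1 point per library with its exact Poisson 95% interval. Untreated PDX CAFs are lowest for all 10 genes, and Acta2 spans 1501 to 7727 CPM while Myh11 spans 0.169 to 25.6 CPM.

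Levels can be compared between genes only per length, here as CPM per kb of the deposited gene length. On that scale Acta2 was first in every library, at 843 CPM per kb in untreated PDX CAFs and 4339 CPM per kb in Cre- control CAFs. In Cre- control CAFs Cnn2 followed at 421 CPM per kb, Tpm2 at 321, Tpm1 at 195, Cnn1 at 142 and Actg2 at 141, while Cald1 was at 96.1, Smtn at 33.2, Tagln at 6.41 and Myh11 at 3.37 CPM per kb. The deposited Acta2 length of 1781 bases is shorter than the 2196 exon bases of GENCODE M21, which would lower its value per kb but leave it first.

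Myosin IIA KO CAFs were compared with Cre- control CAFs to ask what loss of myosin IIA does to CAFs. Of the 10 genes, 4 lay over 2-fold lower in myosin IIA KO CAFs and 0 higher, while 1.7% of the 13326 genes compared lay over 2-fold lower and 3.29% were over 2-fold higher. The 4 genes were Actg2, Myh11, Cnn1 and Acta2. The median log2 ratio of the set was -0.73, against -0.0055 for all genes compared, and 9 of 10 ratios were below 0, against 51.1% of all genes. Actg2 was 4.37-fold lower (log2 ratio -2.13, 95% interval -2.21 to -2.04). Myh11 was 3.46-fold lower (-1.79, -2.03 to -1.57), Cnn1 was 3.41-fold lower (-1.77, -1.83 to -1.71) and Acta2 was 2.28-fold lower (-1.19, -1.20 to -1.18). The other members had log2 ratios nearer 0, at -0.73 for Tpm2, -0.72 for Smtn, -0.68 for Tpm1 and -0.52 for Cnn2. Tagln had a log2 ratio of -0.73 with an interval of -0.99 to -0.48, and its opposite-strand neighbour Gm48529 was higher in the KO library, as given above. Cald1 was the exception, with a log2 ratio of 0.068 (0.046 to 0.091). Beside these values, the summed level of adipocyte markers was 976 CPM in Cre- control and 3508 CPM in myosin IIA KO CAFs, with 8 and 9 of 9 markers at 1 CPM or more. Of the 9 compared, 8 lay over 2-fold higher in myosin IIA KO CAFs, with a median log2 ratio of 2.94. Skeletal muscle markers summed to 32.7 and 7.96 CPM, with Myh1, Myh4, Myh8, Ckm and Myog at 0 counts in both, and fibroblast markers to 47856 and 36497 CPM. The 3 skeletal muscle markers compared all lay over 2-fold lower (median -2.09), as did 1 of 9 fibroblast markers, while 0 of 4 pericyte and vascular smooth muscle markers passed 2-fold. The summed level of pericyte and vascular smooth muscle markers was 175 CPM in both libraries, with 4 of 10 at 1 CPM or more in each and most of the sum from Notch3 (110 and 102 CPM) and Mcam (43.3 and 44.0 CPM). Of the other markers Cspg4 was at 17.8 and 25.5 CPM and Vtn had 11 and 3 counts. The part of all these markers in the result was not tested. The ratios of the 4 genes rest on the Cre- culture as the control. Against untreated PDX CAFs, from another tumor and mouse strain, the log2 ratios in myosin IIA KO CAFs were 1.17 for Acta2, 3.29 for Actg2, 0.25 for Cnn1 and 5.29 for Myh11, with 4 of the 10 genes over 2-fold higher and 0 lower. In that comparison 12.8% of all genes were higher and 8.89% lower by as much.

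Fn1 siRNA was compared with control siRNA to ask what CAFs do with less fibronectin. Of the 10 genes, 0 lay over 2-fold lower and 0 higher, while 0.377% of the 13009 genes compared lay over 2-fold lower and 0.523% were higher by that much. The median log2 ratio of the set was 0.12, against -0.0029 for all genes, and 9 of 10 ratios were above 0, against 49.1% of all genes. Acta2 was 1.16-fold higher (log2 ratio 0.22, 95% interval 0.21 to 0.23), and Cnn1 was 1.17-fold higher (0.22, 0.17 to 0.28). Tpm1 had a log2 ratio of 0.16, Tpm2 of 0.14, Smtn of 0.10, Cnn2 of 0.080 and Cald1 of 0.065. The intervals of these 7 genes lay above 0, but their distance from 0 cannot be set against a spread between cultures. Tagln had the highest ratio, 0.39 with an interval of 0.052 to 0.73. The intervals of Actg2 (0.11, -0.025 to 0.24) and Myh11 (-0.18, -0.80 to 0.43) held 0, so no difference was detectable at this depth. Summed fibroblast markers were at 24451 CPM with control siRNA and 27620 CPM after Fn1 siRNA, pericyte and vascular smooth muscle markers at 64.5 and 65.9 CPM, and their part in the result was not tested. Against untreated PDX CAFs, 6 of the 10 genes lay over 2-fold higher after Fn1 siRNA and 0 lower, where 3.29% of all genes were higher and 3.03% lower by as much.

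Control siRNA PDX CAFs were compared with untreated PDX CAFs, which differ by the transfection but have no named target. This comparison shares the control siRNA library with the preceding one. Of the 10 genes, 6 lay over 2-fold higher with control siRNA, while 2.98% of the 13125 genes compared lay over 2-fold higher and 2.74% over 2-fold lower. The 6 were Myh11, Actg2, Acta2, Tagln, Cnn1 and Tpm1. All 10 ratios were above 0, against 48.3% of all genes, with a median log2 ratio of 1.14 against -0.014 for all genes. Myh11 had a log2 ratio of 3.47, with a wide interval of 2.18 to 5.54 since the control held 4 counts. Actg2 was 7.08-fold higher (2.82, 2.55 to 3.11), Acta2 was 3.20-fold higher (1.68, 1.66 to 1.70), Tagln was 3.10-fold higher (1.63, 1.13 to 2.18) and Cnn1 was 2.43-fold higher (1.28, 1.21 to 1.35). Tpm1 lay on the threshold, at 1.00 with an interval of 0.97 to 1.03. Below it were Tpm2 at 0.71, Cald1 at 0.66, Cnn2 at 0.65 and Smtn at 0.41. The scrambled siRNA library thus held more of every contractile gene than the untreated one, and for each of the 10 this log2 ratio was larger than that of Fn1 siRNA over control siRNA. The difference between these differences was not tested. Summed pericyte and vascular smooth muscle markers were at 37.5 CPM in untreated PDX CAFs and 64.5 CPM with control siRNA, with 2 and 3 of 10 at 1 CPM or more and Kcnj8, Abcc9, Higd1b and Vtn at 0 counts in both. Of the 3 compared, 2 lay over 2-fold higher, Mcam among them, with log2 ratios of 1.90 and 1.95. The other was Notch3, with a ratio below 0 (-0.46), and the median was 1.90. The part of these markers in the result was not tested.

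Cre- control CAFs were set beside untreated PDX CAFs as the other pair of cultures without a knockout or knockdown. They differ in tumor, mouse strain, genotype and tamoxifen, which cannot be told apart here, and both libraries are also controls in other comparisons. Of the 10 genes, 8 lay over 2-fold higher in Cre- control CAFs, while 10.9% of the 13537 genes compared lay over 2-fold higher and 8.43% over 2-fold lower. All but Cnn2 (0.86) and Cald1 (0.69) were past 2-fold, and Smtn lay close to it at 1.01 (0.93 to 1.09). All 10 ratios were above 0, against 47.8% of all genes, and their median was 1.59, against -0.030 for all genes. Actg2 was 42.6-fold higher (5.41, 5.16 to 5.69), Tagln was 7.27-fold higher (2.86, 2.40 to 3.38), Acta2 was 5.15-fold higher (2.36, 2.35 to 2.38) and Cnn1 was 4.06-fold higher (2.02, 1.96 to 2.09). Myh11 had a log2 ratio of 7.08, with an interval of 5.88 to 9.12. Tpm2 had a ratio of 1.17 and Tpm1 of 1.03 on the same scale. Summed pericyte and vascular smooth muscle markers were at 37.5 CPM in untreated PDX and 175 CPM in Cre- control CAFs, with 2 and 4 of 10 at 1 CPM or more. The 4 of them compared all lay over 2-fold higher, with a median log2 ratio of 2.06. Fibroblast markers summed to 21136 and 47856 CPM, and of the 9 compared 5 lay over 2-fold higher and 1 lower. Of 8 adipocyte markers compared, 7 lay over 2-fold higher. All 9 listed summed to 556 and 976 CPM, and Adipoq, Lep and Retn had no count in untreated PDX CAFs. Skeletal muscle markers summed to 3.85 and 32.7 CPM, and the 3 compared all lay over 2-fold higher. The part of these markers in the result was not tested.

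**Figure D2:**
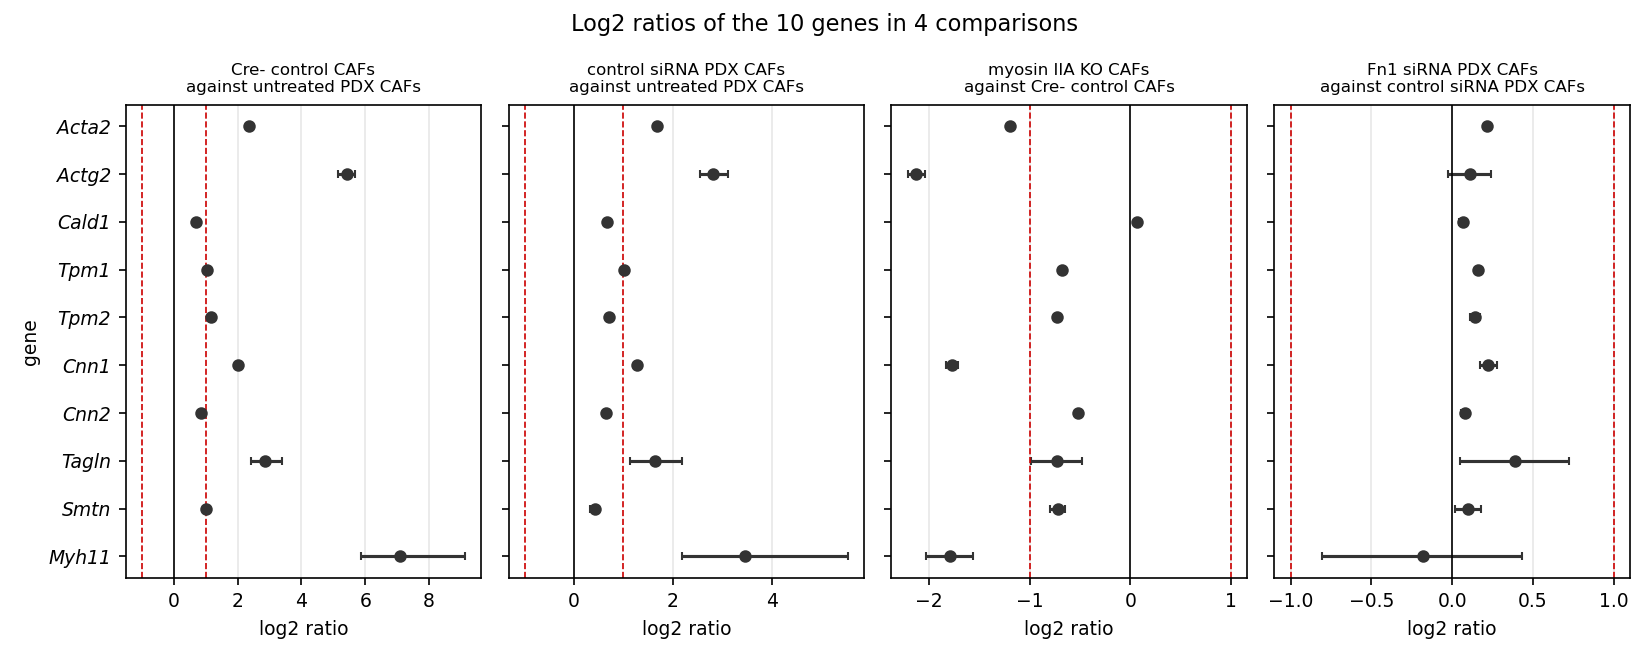
Log2 ratio of each of the 10 genes in the 4 comparisons, each panel on its own scale, with exact conditional binomial 95% intervals that cover counting error only and dashed lines at 2-fold. In myosin IIA KO CAFs 9 of 10 genes lie below 0, after Fn1 siRNA all 10 lie within 2-fold, and in both panels with untreated PDX CAFs as the control all 10 lie above 0.

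Most contractile genes belong to families whose other members serve all cells, so the share of the muscle form within its family was computed. Acta2 made up 17.1% of the counts of the 6 actin genes in untreated PDX CAFs, 33.4% with control siRNA, 35.6% with Fn1 siRNA, 48.9% in Cre- control CAFs and 35.9% in myosin IIA KO CAFs. Per length, Acta2 was below the cytoplasmic actin Actb in untreated PDX CAFs, at 23.6% against 46.2% of the family, and above it in Cre- control CAFs, at 58.3% against 26.5%. Of the sarcomeric actins, Acta1 (skeletal muscle) was between 6.44 and 85.4 CPM, at most 0.541% of actin counts, and Actc1 (heart) at 3 counts or fewer. Cnn1 took 9.92% of calponin counts in untreated PDX CAFs, 15.7% with control siRNA, 17.0% with Fn1 siRNA, 20.7% in Cre- control CAFs and 10.1% in myosin IIA KO CAFs. The exact Clopper-Pearson intervals of its shares in untreated PDX CAFs (9.53% to 10.3%) and myosin IIA KO CAFs (9.75% to 10.4%) overlapped. Tpm1 and Tpm2 together took 35.5%, 46.0%, 48.1%, 50.6% and 44.8% of tropomyosin counts in the same order.

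For myosin II the family total includes Myh9, the gene targeted in the KO. Myh11 made up 0.00688% of the heavy chain counts in untreated PDX CAFs, 0.0558% with control siRNA and 0.0465% with Fn1 siRNA. Its share was 0.861% in Cre- control CAFs (0.797% to 0.928%) and 0.883% in myosin IIA KO CAFs (0.766% to 1.01%), with overlapping intervals. The family totals there were 77701 and 23110 counts, and Myh11 itself had 669 and 204 counts, so like shares do not mean like levels of Myh11. In the KO library the targeted gene Myh9 was lower by 2.51 on the log2 scale. Myh10, which encodes myosin IIB, was at 403 CPM there against 528 CPM in Cre- control CAFs. By counts Myh9 was the largest member of the family in every library, in the KO library at 50.9% against 48.2% for Myh10. Per length, Myh10 took 53.2% and Myh9 45.4% of the family in myosin IIA KO CAFs, against 21.0% and 77.6% in Cre- control CAFs. Tagln took between 0.397% and 1.99% of transgelin counts, with the overlap noted above, and Tagln2, the form of many cell types, nearly all the rest.

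**Figure D3:**
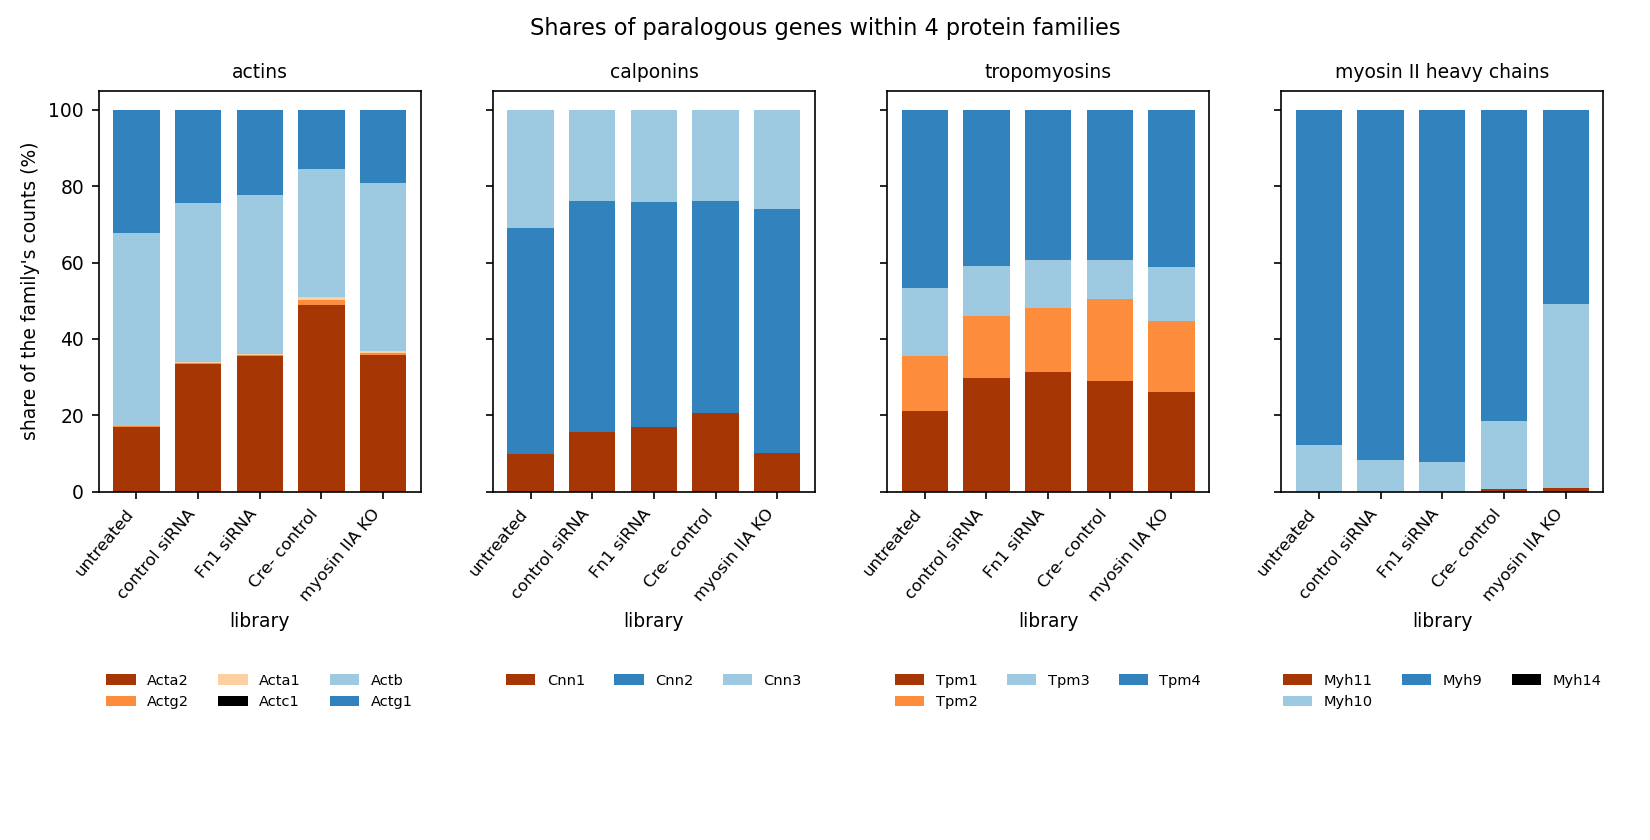
Share of the counts of each protein family (percent) taken by its members in the 5 libraries, as stacked bars, for actins, calponins, tropomyosins and myosin II heavy chains. The Acta2 share of actins runs from 17.1% in untreated PDX CAFs to 48.9% in Cre- control CAFs, and Myh11 stays under 1% of myosin II heavy chains in every library.

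The other members of these families were set beside them in the KO comparison. Of 14 such genes 9 were compared, all with ratios below 0, against 51.1% of all genes, and their median log2 ratio was -0.46. These 9 include Myh9, the targeted gene, whose lower level was given by the design. Myh9 and Acta1 (-1.38) were over 2-fold lower and none over 2-fold higher, where 1.7% of all genes were lower and 3.29% higher by as much. Actb had a log2 ratio of -0.34, Actg1 of -0.46, Cnn3 of -0.62, Tpm4 of -0.46, Tpm3 of -0.055 and Tagln2 of -0.30. In Fn1 siRNA against control siRNA, 0 of 9 passed 2-fold and the median was 0.069, where 0.377% of all genes were over 2-fold lower and 0.523% higher.

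Further genes of the contractile apparatus were listed beyond the set, 24 in all. In myosin IIA KO relative to Cre- control CAFs, 22 were compared, with 5 over 2-fold lower, 1 over 2-fold higher and a median log2 ratio of -0.53. Of all genes compared, 1.7% were over 2-fold lower and 3.29% higher. Mylk, the kinase that switches on smooth muscle myosin, was at 112 CPM in Cre- control and 46.8 CPM in myosin IIA KO CAFs (-1.26), and Myl9, the light chain it phosphorylates, at 948 and 471 CPM (-1.01). Ppp1r14a, an inhibitor of myosin phosphatase, had a ratio of -1.93 from 95 and 26 counts, Pgm5 of -1.42 from 49 and 19 counts, and the LIM protein gene Fhl1 of -1.14. The intermediate filament gene Des was over 2-fold higher, at 1.72 and 4.05 CPM (1.23). In Fn1 siRNA against control siRNA, 0 of 21 passed 2-fold and the median was 0.10, where 0.377% of all genes were over 2-fold lower and 0.523% higher.

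Against untreated PDX CAFs, 9 of 21 of these genes lay over 2-fold higher with control siRNA (median 0.93) and 13 of 22 in Cre- control CAFs (median 1.46), with 0 over 2-fold lower in either. The shares of all genes over 2-fold higher were 2.98% with control siRNA and 10.9% in Cre- control CAFs, and those over 2-fold lower 2.74% and 8.43%. With control siRNA the highest log2 ratios were those of Jph2 at 1.89, Fhl1 at 1.85, Kcnmb1 at 1.74 and Myl9 at 1.58. Mylk was at 3.26 CPM in untreated PDX CAFs, 3.42 CPM with control siRNA and 4.37 CPM after Fn1 siRNA, so its high level was limited to the cultures from the floxed mice. There its log2 ratio over untreated PDX CAFs was 5.09 in Cre- control CAFs and 3.84 in myosin IIA KO CAFs. Pdlim3, at 0 counts in untreated PDX CAFs, was at least 14.2-fold higher in Cre- control CAFs by the limit of 3 counts, and the list's median stays at 1.46 with it set there.

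Genes that are known to switch this set on were also set beside it. Of 22 listed activators, 21 were compared in the KO comparison, and 16 had ratios below 0, against 51.1% of all genes. Their median log2 ratio was -0.14, nearer to 0 than the -0.73 of the set. None passed 2-fold either way, but only 1.7% of all genes were over 2-fold lower and 3.29% higher. So 0 of 21 does not set the activators apart from other genes. Srf was at 124 CPM in Cre- control and 103 CPM in myosin IIA KO CAFs (-0.26), Mkl1, which encodes MRTF-A, had a ratio of -0.23 and Mkl2, which encodes MRTF-B, of -0.076. The TGFβ genes Tgfb2 (-0.67) and Tgfb3 (-0.63), Fhl2 (-0.59) and the Notch ligand gene Jag1 (-0.58) had the lowest ratios. Myocd, which encodes myocardin, was at 0.191 CPM or less in all 5 libraries. Of 7 repressors 6 were compared, with a median of -0.048, and Hey2 alone passed 2-fold, at -1.43 from 6.47 to 2.39 CPM. Klf4, which holds down smooth muscle genes, was at 49.7 and 58.5 CPM (0.24).

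In Fn1 siRNA against control siRNA, 0 of 21 activators and 0 of 7 repressors passed 2-fold, where 0.377% of all genes were lower and 0.523% higher by as much. Srf was at 199 CPM with control siRNA and 197 CPM after Fn1 siRNA. With control siRNA against untreated PDX CAFs, Jag1 (1.28) was the only one of 21 activators over 2-fold higher, against 2.98% of all genes. Srf had a ratio of 0.87 from 108 CPM in untreated PDX CAFs. In Cre- control against untreated PDX CAFs, 5 of 21 were over 2-fold higher, against 10.9% of all genes. These were Jag1 at 3.66, Tgfb3 at 2.50, Notch3 at 2.15, Gata6 at 1.07 and Tgfb2 at 1.04, while Srf was at 0.19. Notch3 is also among the pericyte and vascular smooth muscle markers above.

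**Figure D4:**
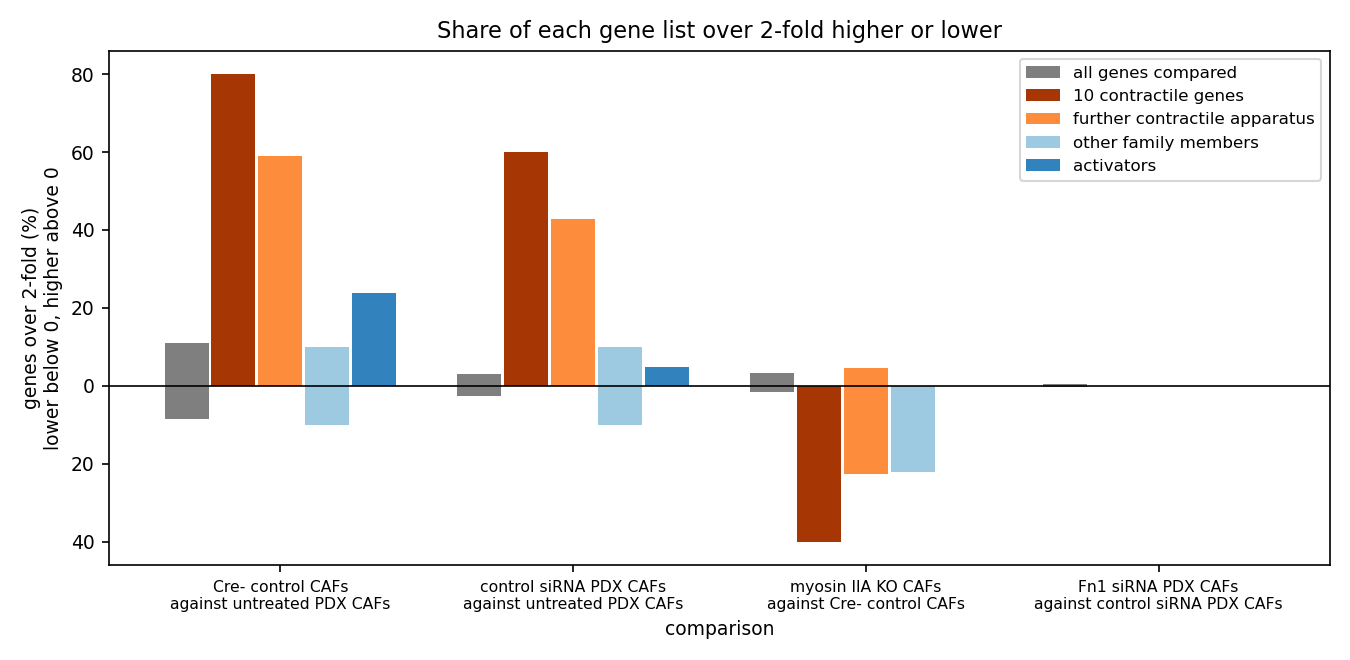
Share of genes over 2-fold higher (bars above 0) or lower (bars below 0), in percent of those compared, for all genes, the 10 contractile genes, further contractile genes, other family members and activators in the 4 comparisons. The contractile genes have the longest bars, with 8 and 6 of 10 higher in the comparisons with untreated PDX CAFs and 4 of 10 lower in myosin IIA KO CAFs, and no bar after Fn1 siRNA.

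The genes nearest to Acta2 in pattern over the 5 libraries were sought among 9840 genes, by the root mean square difference of log2 (CPM + 1) values centred on each gene's mean. The nearest outside the set were Myl9 (0.16), Mustn1 (0.16), Soat2 (0.21), Mrvi1 (0.21) and Jph2 (0.21), and of the set itself Cnn1 was at rank 6 and Tagln at rank 7. Tpm2 ranked 30, Tpm1 32, Cnn2 58, Smtn 64 and Cald1 133. Actg2 and Myh11 fell far down, at ranks 7969 and 8992. Their range between libraries was wider than that of Acta2, and their order differed. Both were higher in myosin IIA KO CAFs than in either siRNA library, while Acta2 was lower there. Outside the set, the nearest to Cnn1 were Tnfrsf11b (0.18), Soat2 (0.21), Mustn1 (0.23), Mrvi1 (0.26) and Wisp1 (0.33), with Acta2 between the last 2, at rank 5. Myl9 ran from 166 CPM in untreated PDX CAFs through 471 CPM in myosin IIA KO CAFs and 497 and 596 CPM with control and Fn1 siRNA to 948 CPM in Cre- control CAFs, the order of Acta2. With 5 libraries of which 4 differ in treatment or origin, nearness in pattern is a description of these samples.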

How the data were processed

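The authors deposited raw counts per gene for 5 libraries in a single table, without normalization, with the gene lengths used here. Libraries were made and sequenced on an Illumina instrument, and the submitters' processing notes name mm10. Not given in the sources used here were the aligner, the counter, the annotation release and whether strand was used. GENCODE M21 held 54409 of the identifiers, 98.3% with the same coordinates, as for 9 of the 10 genes, Acta2 being the exception.

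Ratios used TMM scaling within each pair (edgeR 4.0.16, R 4.3.3), 0.5 counts added in proportion to library size, over genes that reached 1 CPM in either library. CPM used TMM over all 5 libraries. Intervals of 95% were exact (conditional binomial, Poisson, Clopper-Pearson; Python 3.11.15, scipy 1.17.1). Only those of the ratios were tried on simulated data, drawn as Poisson counts without differences between cultures, so the trial checks the calculation alone. No test between conditions was made, and the 2-fold threshold was read without a p-value. Depth was 22961620 to 26596351 counts.

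The genes and lists were chosen with earlier results of these data known. Named were the 10 genes, their families, the list members with the largest ratios or levels, the targeted and overlapping genes, and the nearest in pattern, and the text gives part of these. Notch3 stands in 2 lists. Tried as alternatives were library totals, upper-quartile scaling, size factors of DESeq2 1.42.0, adding 5 counts, no filter, 10 CPM, whole intervals past 2-fold, untreated PDX CAFs as the control and the set without Tagln.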

Additional observations from a re-analysis of the deposited data

How the results depend on the processing

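With 1 library per condition, counting intervals leave out differences between cultures, and the strand of counting is unknown for Tagln. No ratio of the 10 genes changed sign in the 4 comparisons under DESeq2 size factors, library totals, upper-quartile scaling, 5 added counts, no filter or a filter of 10 CPM. Their largest shift was 0.027 with DESeq2 size factors, 0.022 with upper-quartile scaling, 0.074 with library totals and 0.957 with 5 added counts, and counts over 2-fold stayed within 1.5 times. The median for control siRNA against untreated PDX CAFs, 1.14, was 1.07 with library totals, 0.86 with the filter of 10 CPM and 1.00 without Tagln, and that for Cre- control CAFs was 1.17 in place of 1.59 without Tagln. The cause was not tested, beyond the smaller number of genes in the last 3. With untreated PDX CAFs as the control, 0 genes lay over 2-fold lower and 4 higher in myosin IIA KO CAFs, with a median of 0.60, and 6 lay higher with Fn1 siRNA, with a median of 1.35. Then the ratios in myosin IIA KO CAFs were 1.17 for Acta2, 3.29 for Actg2, 0.25 for Cnn1 and 5.29 for Myh11, and 10 of 20 ratios changed sign, since the control was another culture. No paired analysis was possible because each condition has 1 library, and no replicate could be left out for the same reason.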
